A study of Mus musculus with 6 samples.

Results

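The 8 genes described here are the peroxisome proliferator-activated receptors Pparg, Ppara and Ppard, the coactivators Ppargc1a and Ppargc1b, and Esrra, Nrf1 and Tfam, which act in mitochondrial biogenesis. They were taken by symbol from the deposited tables, and 8 of 8 were found among 24063 symbols. The tables come from bulk RNAseq of endothelial cells (ECs) of male C57BL6 mice, isolated from the lung with anti-CD31 beads. The groups were sham-operated mice (Sham, 3 libraries) and mice 7 days after unilateral pneumonectomy (PNX, 3 libraries), in which the left lung is removed and the remaining lung grows. Each library pooled 2 mice, the sham operation was a thoracotomy without PNX, and the mice were 8 weeks old by the labels, whereas the methods give a higher age at surgery.

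PPARs are nuclear receptors for fatty acids and their derivatives, and they bind DNA with a retinoid X receptor (RXR) as partner. PPARγ drives fat storage and is required by alveolar macrophages, PPARα drives fatty acid oxidation, and PPARδ is broadly expressed. PGC1α and PGC1β, the products of Ppargc1a and Ppargc1b, do not bind DNA themselves but join PPARs, ERRα (Esrra) and nuclear respiratory factor 1 (Nrf1) to switch on genes of fatty acid oxidation and the respiratory chain. Nrf1 in turn drives Tfam, the factor that transcribes and packages mitochondrial DNA.

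Stretches of DNA before the start sites carry letters that transcription factors are known to bind, and 4 of them are shown. Binding at these genes was not tested. They are RefSeq sequences of GRCm38.p6, written 5′ to 3′ on the strand of the gene. Windows of 7 of the 8 genes were searched. Ppargc1b was left out of the search, so nothing is said here about letters before its start site. The Ppargc1a stretch is the 250 bases before the start on the minus strand of chr5:51567726-51567975, with capitals on the core of the cyclic AMP response element (TGACG, here read on the other strand), the site of the CREB factors that induce this gene in fasting liver. The Esrra stretch (minus strand of chr19:6921815-6921862) and the Ppara stretch (plus strand of chr15:85735727-85735774) have capitals on the NRF1 core GCATGCGC, and the Tfam stretch (minus strand of chr10:71238064-71238111) on CCGGAAG, the letters bound by the GABP factor.
Ppargc1a: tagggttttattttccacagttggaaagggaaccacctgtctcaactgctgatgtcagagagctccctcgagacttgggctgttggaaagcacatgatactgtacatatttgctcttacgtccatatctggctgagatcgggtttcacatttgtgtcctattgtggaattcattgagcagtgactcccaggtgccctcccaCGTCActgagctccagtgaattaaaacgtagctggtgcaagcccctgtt
Esrra: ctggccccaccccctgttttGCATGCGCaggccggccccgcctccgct
Ppara: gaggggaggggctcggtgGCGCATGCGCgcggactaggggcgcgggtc
Tfam: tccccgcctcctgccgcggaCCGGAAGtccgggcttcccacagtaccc

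With the start site as position 0, the Ppargc1a match lies at −49 to −45, the Esrra match at −34 to −27 and the Tfam match at −47 to −41. In Ppara a match on each strand overlaps the other, and together they span −31 to −22. The letters were searched on both strands of 32851 windows of 300 bases around annotated start sites. The NRF1 core was in 2.71%, the GABP letters in 8.86% and the short TGACG core in 20.8%. The full response element TGACGTCA was in 1.79% and in 0 of the 7 genes searched. The ERRα site TCAAGGTCA was in 0.423% of all windows and in 0 of these 7 genes, which says only that these letters are not in the windows searched.

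Replicates 1 and 2 of each group, which the labels mark as re-used, differed by little more than counting error and were summed to 1 sample. The chi-square per degree of freedom was 1.75 in Sham and 1.57 in PNX, against 67.9 to 86.4 for pairs with replicate 3. The re-used libraries are called the earlier deposit here, and replicate 3 of each group the later deposit. Each group thus had n = 2 samples, and a library held 29526989 to 81282871 counts in all. Of the 12 endothelial markers examined, 12 were detected, with a summed level of 11930 to 14900 CPM (counts relative to a library size scaled by TMM) in Sham and 10690 to 11830 CPM in PNX. In a fit with the deposit as replicate block, described in the next paragraph, 3 of the 12 were lower in PNX and 0 higher at an adjusted p under 0.05. Over all genes tested, 10.1% were lower and 11.5% higher at that threshold, which is also the background for the marker counts below. Epithelial and macrophage markers were also counted in every library, and their values are given beside those of Ppargc1a, Ppara and Pparg. In bulk RNA, fewer cells of a type and less RNA per cell cannot be told apart. Beyond the lists described with the genes, and in the same fit, 12 of 12 cell division genes, 7 of 10 interstitial macrophage and monocyte, 7 of 11 fibroblast, 6 of 9 adipocyte and 5 of 6 mesothelial markers had higher values in PNX at an adjusted p under 0.05, 2 fibroblast markers and 6 of 8 alveolar type 1 markers were lower, 1 alveolar type 1 marker and 1 of 7 cardiac muscle markers were higher, and 0 of 10 smooth muscle and pericyte markers passed.

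The question was whether the transcripts of these regulators differed between PNX and Sham ECs. With edgeR's quasi-likelihood test on the 4 samples, 0 of the 8 genes passed the thresholds of the study's methods, a log2 fold change over 1 in either direction at an adjusted p under 0.01. The background was 0 of 16598 genes tested, or 0%, with 2076 genes (12.5%) at an unadjusted p under 0.05, of which 1 was among the 8. DESeq2 called 587 genes from these samples and limma-voom 0, with 0 of the 8 in each. Because both groups have a sample of each deposit, a fit with the deposit as replicate block was made. It has 1 residual degree of freedom and called 849 genes (5.12%), 645 of them higher after PNX and 204 lower, or 540 and 84 when scaled by DESeq2's size factors. Of the 8 genes it called 1, Ppargc1a, which was lower (background 1.23% for lower and 3.89% for higher calls). At an adjusted p under 0.05 and with no minimum fold, 1 of 8 passed with the block, against 21.6% of all genes. In the 6 libraries, the PNX values lay wholly below the Sham values for 3 of the 8 genes (18.0% of all genes) and wholly above them for 2 (18.6%). The median log2 fold change of the 8 genes was −0.14, and that of all genes tested −0.01.

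**Figure D1:**
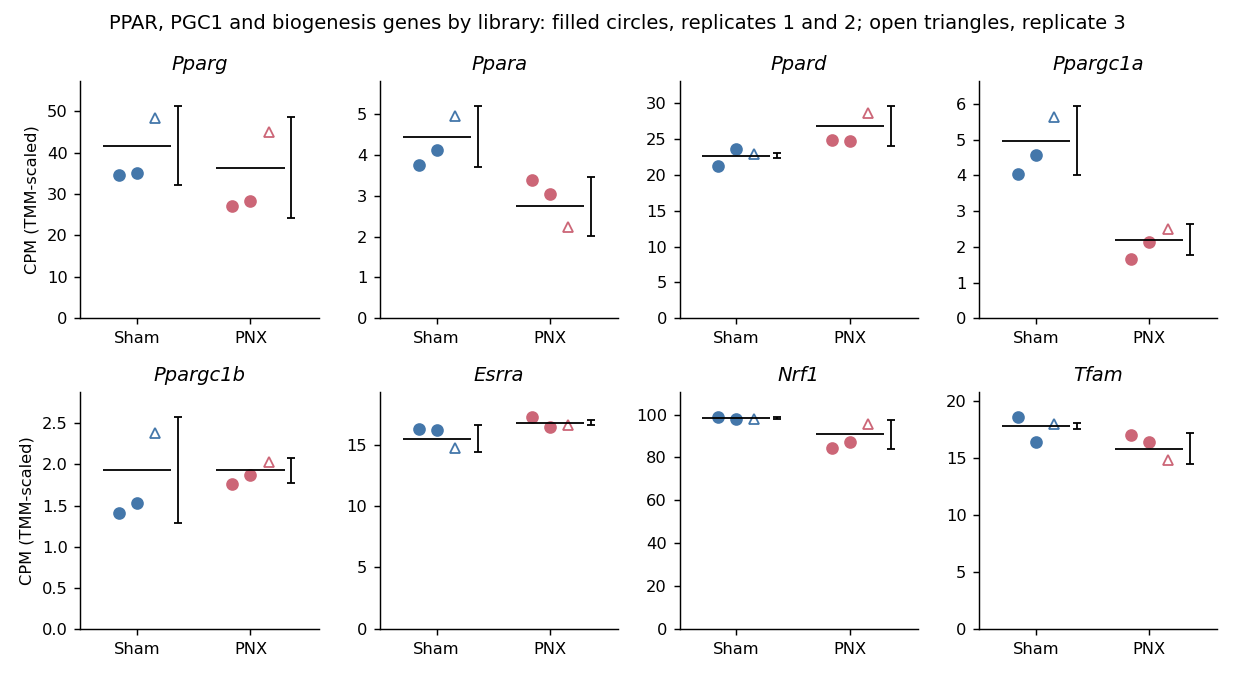
TMM-scaled CPM of each gene in the 3 Sham (blue) and 3 PNX (red) libraries, with the mean (line) and SD (bar) over the n = 2 samples per group, where replicates 1 and 2 (filled circles) count as 1 sample and replicate 3 (open triangles) as the other. Ppargc1a in PNX lies between 1.65 and 2.50 CPM, below all Sham libraries, while the levels of Pparg differ more between the circles and the triangles than between the groups.

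Ppargc1a, which encodes PGC1α, had the largest difference of the 8 genes. It lies on chromosome 5 (minus strand, 51454250 to 51567726) (GENCODE vM21, GRCm38), where 4 other annotated genes lie within it and 0 share an exon with it. Sham replicates 1, 2 and 3 had 161, 162 and 96 counts on its coding transcript, and PNX replicates 1, 2 and 3 had 62, 71 and 37. Every PNX library was below every Sham library also after scaling for depth. A second, noncoding transcript of the gene had the same count in every library, so each read entered the symbol's sum more than once. That sum came to 4.98 ± 0.957 CPM in Sham and to 2.20 ± 0.436 CPM in PNX (SD over n = 2 samples). The 2 samples of one group did not overlap those of the other, in a design in which a two-sided exact permutation test cannot give a p below 0.333.

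The log2 fold change of Ppargc1a was −1.19 (standard error, SE, 0.29). The edgeR p was 0.0105 before adjustment and 0.215 after it, so the gene did not pass without the block. With the replicate block Ppargc1a passed, and fell by 1.18 on the log2 scale (SE 0.17, edgeR adjusted p = 0.00371). This call depended on how the equal transcripts were counted and on 1 library. With only the coding transcript counted, the blocked log2 fold change was −1.17 at an edgeR adjusted p of 0.0128, and without PNX replicate 1 it was −1.08 at 0.0201. With the 6 libraries as separate replicates, edgeR gave an adjusted p of 0.0194 for it and called 409 genes (2.51%), and DESeq2, which the study's methods name, gave 1.27e-05 and called 927 (5.41%). The difference was alike in both deposits. From 133 counts in PNX against 323 in Sham, the level in the earlier deposit was 0.440 of that in Sham (exact Clopper-Pearson 95% interval 0.357 to 0.540), and from 37 against 96 counts it was 0.444 in the later deposit (0.295 to 0.655). These intervals cover counting error only.

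Markers of airway and alveolar epithelium were lower in the same libraries as Ppargc1a. Of 6 club cell markers, 6 were lower with the replicate block at an adjusted p under 0.05 (background 10.1% of all genes). Their summed level was 3069 to 5119 CPM in Sham and 1362 to 1469 CPM in PNX. Scgb1a1, the club cell secretory protein and the most abundant of them, was at 2008, 2024 and 3626 CPM in the Sham libraries and at 977, 940.4 and 950.2 CPM in PNX. Of 14 ciliated cell markers, a list added after the values were seen, 14 were lower by the same rule, with 251 to 298 CPM in Sham and 158 to 168 CPM in PNX. The most abundant, Tppp3, was at 131 to 144 CPM in Sham and 90.2 to 109 CPM in PNX. Of 10 alveolar type 2 markers, 10 were lower, with 5675 to 6061 CPM in Sham and 2200 to 3673 CPM in PNX. No marker of these lists was at 0 in all libraries, and their part in the level of Ppargc1a was not tested.

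Among 14156 genes with a mean of at least 1 CPM, the 5 whose centred log2 CPM over the 4 samples lay nearest to that of Ppargc1a were Tsnaxip1, Mycbpap, Ccdc170, Ccdc30 and Elmod1, with root mean square differences of 0.04 to 0.07. Mycbpap was at 4.59, 4.37 and 6.23 CPM in the Sham libraries and at 2.15, 2.09 and 2.84 CPM in PNX. The nearest profile, that of Tsnaxip1, had a log2 fold change of −1.12. A similar value follows from the choice, which used the same 4 samples.

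Ppargc1b, the gene of PGC1β, did not share this difference. Its 1 transcript had 112, 109 and 81 counts in Sham and 132, 124 and 60 in PNX, in the order of the replicates. This was 1.93 ± 0.646 CPM in Sham and 1.93 ± 0.151 CPM in PNX (SD over n = 2 samples), and the groups overlapped. The log2 fold change was 0.01 (SE 0.35, edgeR adjusted p = 0.996) and 0.08 with the replicate block. The deposits differed in sign, with a PNX over Sham ratio of 1.24 (exact 95% interval 1.03 to 1.49) in the earlier and 0.853 (0.600 to 1.21) in the later one. The ratio of the TPM of Ppargc1a to that of Ppargc1b, a comparison per transcript length, was 0.813, 0.841 and 0.670 in Sham and 0.266, 0.324 and 0.349 in PNX. These ratios take the transcript with the highest total, on which Ppargc1a lay below Ppargc1b in every library, and they did not overlap between the groups. Summed over transcripts, which counts the shared reads of Ppargc1a on each, Ppargc1a was at 1.56, 1.77 and 2.19 TPM in the Sham libraries, above Ppargc1b at 0.963, 1.05 and 1.64 TPM, and in PNX at 0.637, 0.827 and 0.971 TPM, below Ppargc1b at 1.20, 1.28 and 1.40 TPM.

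**Figure D2:**
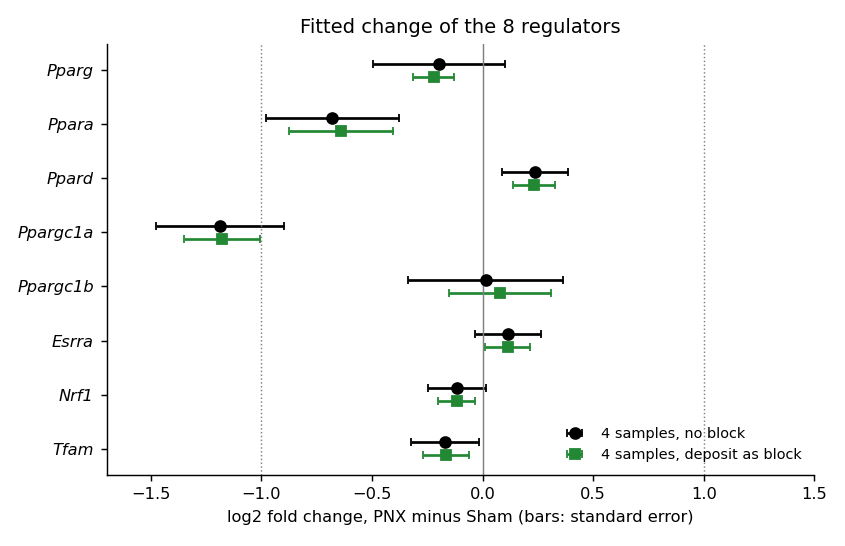
Fitted log2 fold change (PNX minus Sham) of each gene with its SE, from edgeR on 4 samples without (black circles) and with (green squares) the deposit as block; dotted lines mark a log2 fold change of 1 in either direction. Ppargc1a, at −1.19 and −1.18, is the gene whose points lie beyond a dotted line, and the points of the other 7 genes lie closer to 0. Without the block, the bars of Ppargc1a and Ppara overlap.

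Ppara, the receptor that drives fatty acid oxidation in liver and muscle, had the next largest difference. It lies on chromosome 15 (plus strand, 85734983 to 85802819). Its transcript with the highest total had 150, 146 and 85 counts in Sham and 128, 101 and 33 in PNX, and its second transcript was within 1 count of it in every library. All PNX libraries were below all Sham libraries in CPM, at 3.40, 3.06 and 2.23 against 3.75, 4.11 and 4.97. The log2 fold change was −0.68 (SE 0.30, edgeR adjusted p = 0.464) and −0.64 with the replicate block (SE 0.23, edgeR adjusted p = 0.0940), so it passed in neither fit. Its size rested mostly on the later deposit, with a PNX over Sham ratio of 0.447 (exact 95% interval 0.290 to 0.675) there and 0.826 (0.692 to 0.985) in the earlier one.

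The 5 genes with the profile nearest to that of Ppara, by the same measure, were Gm13546, Bmp3, Muc1, Bpifb5 and Chil1, with differences of 0.04 to 0.06. Muc1, a mucin of epithelial surfaces, was at 45.5, 43.2 and 54.3 CPM in the Sham libraries and 37.0, 38.7 and 27.3 CPM in PNX. Sftpc, the surfactant protein C gene and the most abundant alveolar type 2 marker, was at 2370, 2360 and 2501 CPM in the Sham libraries and at 1511, 1502 and 818 CPM in PNX. The part of these cells in the level of Ppara was not tested.

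Pparg, on chromosome 6 (plus strand, 115360951 to 115490399), had the highest level of the 3 receptors but differed little between the groups. Its transcripts for PPARγ1 and PPARγ2 had nearly equal counts, with 9 to 29 more on the former, so the tables do not separate these isoforms. The PPARγ1 transcript had 1385, 1259 and 828 counts in Sham and 1036, 944 and 668 in PNX. The symbol was at 34.6, 35.1 and 48.3 CPM in the Sham libraries and 27.2, 28.3 and 44.9 CPM in PNX. Replicate 3 was the highest library of each group, and the groups overlapped. The later deposit exceeded the earlier one by 0.47 in Sham and 0.69 in PNX on the log2 scale, whereas the log2 fold change between PNX and Sham was −0.20 (SE 0.30, edgeR adjusted p = 0.868) and −0.22 with the replicate block (edgeR adjusted p = 0.135). Without Sham replicate 3 the log2 fold change was 0.06.

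Alveolar macrophages, which depend on PPARγ, left transcripts in all libraries. Their 13 markers in the tables summed to 1605, 1592 and 3032 CPM in the Sham libraries and to 3526, 3468 and 3497 CPM in PNX. With the replicate block 5 of 13 were higher and 4 lower after PNX at an adjusted p under 0.05 (background 11.5% higher and 10.1% lower). Of the 13, 0 were at 0 in all libraries. Chil3, the most abundant, was at 921, 915 and 1732 CPM in the Sham libraries and at 2581, 2519 and 2132 CPM in PNX. Without Chil3, a sum taken after the values were seen, the other 12 markers came to 684, 677 and 1301 CPM in the Sham libraries and 945, 949 and 1365 CPM in PNX, and the groups overlapped. Singly, 4 of the 13 markers had all PNX libraries above all Sham libraries (background 18.6%), and 9 overlapped. The 10 markers of adipocytes, another cell type with high Pparg, summed to 4.47 to 6.87 CPM in Sham and 9.06 to 29.3 CPM in PNX. Most of the Sham sum was Adrb3, the most abundant of them. It was at 5.71, 5.80 and 3.44 CPM in the Sham libraries and at 4.94, 4.68 and 1.52 CPM in PNX, and overlapped. Of the 9 tested, 7 had all PNX libraries above all Sham libraries (background 18.6%) and 0 below. Their median log2 fold change was 4.53. The part of macrophages or adipocytes in the level of Pparg was not tested.

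Ppard was the receptor with the higher values after PNX. It lies on chromosome 17 (plus strand, 28232700 to 28301474) and has 1 transcript, with 21.3, 23.6 and 22.9 CPM in the Sham libraries and 24.8, 24.7 and 28.7 CPM in PNX. All PNX libraries were above all Sham libraries, by little. The log2 fold change was 0.24 (SE 0.15, edgeR adjusted p = 0.614) and 0.23 with the replicate block (edgeR adjusted p = 0.131). The PNX over Sham ratio was 1.11 (exact 95% interval 1.05 to 1.16) in the earlier and 1.25 (1.14 to 1.38) in the later deposit.

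**Figure D3:**
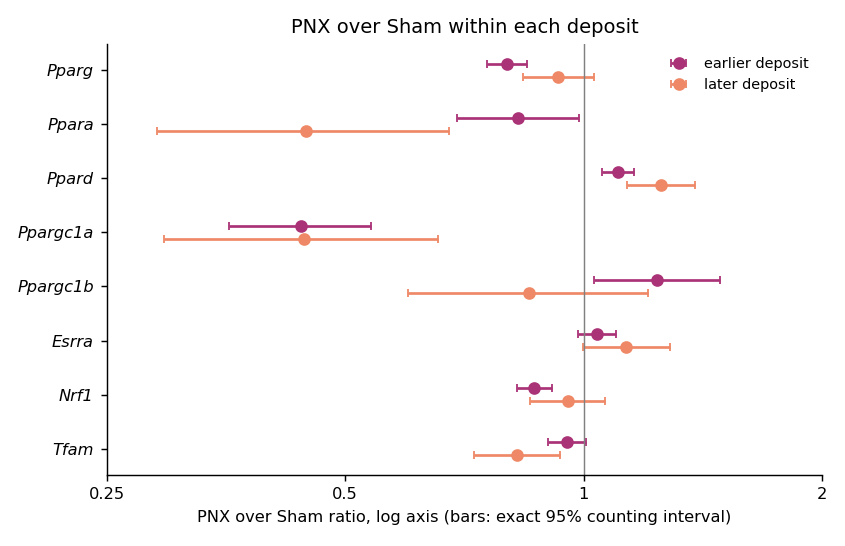
PNX over Sham ratio of each gene within the earlier (purple) and the later (orange) deposit on a log axis, with exact 95% intervals that cover counting error only, from the transcript with the highest total. The 2 ratios of Ppargc1a, 0.440 and 0.444, coincide, those of Ppara differ (0.826 and 0.447), and those of Ppargc1b lie on opposite sides of 1.

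Esrra, Nrf1 and Tfam, the factors through which PGC1α is known to act on mitochondria, differed by less than 0.2 on the log2 scale. Esrra, on chromosome 19 (minus strand, 6910977 to 6921813), was at 16.3, 16.2 and 14.7 CPM in the Sham libraries and 17.2, 16.5 and 16.6 CPM in PNX. Its log2 fold change was 0.12 (SE 0.15, edgeR adjusted p = 0.834), and its count is uncertain because an exon overlaps Trmt112 on the opposite strand and no source used here says that strand was used in counting. Nrf1, on chromosome 6 (plus strand, 30047988 to 30153458), was at 98.8, 97.9 and 97.7 CPM in the Sham libraries and 84.4, 87.2 and 95.5 CPM in PNX, summed over 6 transcripts that share most of their reads. The PNX libraries lay below the Sham libraries, and the log2 fold change was −0.11 (SE 0.13, edgeR adjusted p = 0.808). Tfam, on chromosome 10 (minus strand, 71225464 to 71238280), was at 18.6, 16.5 and 18.0 CPM in the Sham libraries and 17.0, 16.4 and 14.8 CPM in PNX. Its groups overlapped when replicates 1 and 2 were taken singly, and its log2 fold change was −0.17 (SE 0.15, edgeR adjusted p = 0.745). With the replicate block the edgeR adjusted p of these genes lay between 0.301 and 0.464.

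Levels between the genes were compared per transcript length, as TPM of the transcript with the highest total. In Sham the order was Pparg (28.3 ± 6.58 TPM, SD, n = 2 samples), Ppard (17.7 ± 0.303), Esrra (17.3 ± 1.16), Nrf1 (15.5 ± 0.295), Tfam (11.4 ± 0.258), Ppargc1b (1.32 ± 0.447), Ppargc1a (0.967 ± 0.188) and Ppara (0.754 ± 0.129). The neighbours Ppard and Esrra, Ppargc1b and Ppargc1a, and Ppargc1a and Ppara overlapped between samples. In PNX the order was the same but for its end, where Ppara (0.460 ± 0.117 TPM) and Ppargc1a (0.427 ± 0.0847 TPM) overlapped, as did Pparg (24.7 ± 8.28) and Ppard (20.8 ± 2.27). Both PGC1 coactivators and Ppara thus lay below 2 TPM in every library, and the other 5 genes above 9 TPM. Summed over transcripts, Nrf1 came first, at 87.7 TPM in Sham and 81.0 TPM in PNX, because its 6 transcripts share reads.

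**Figure D4:**
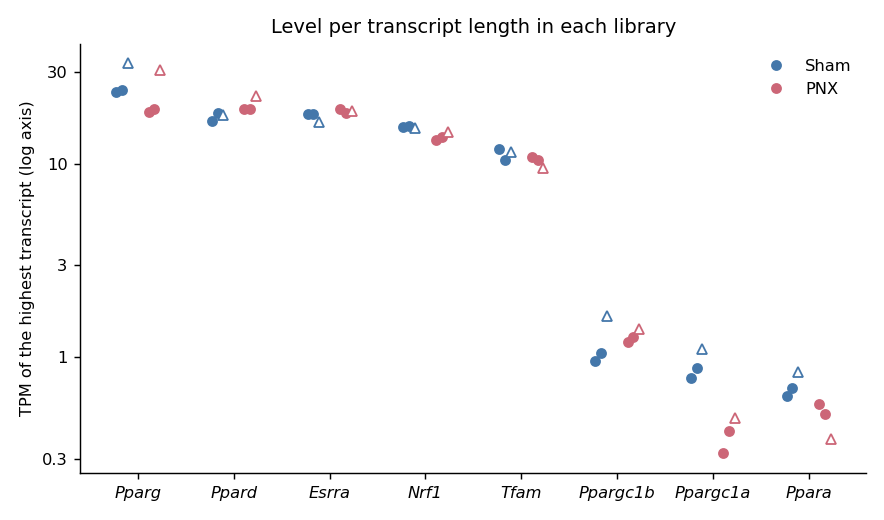
TPM of the transcript with the highest total of each gene on a log axis, in Sham (blue) and PNX (red) libraries, with replicates 1 and 2 as filled circles and replicate 3 as open triangles. Pparg, Ppard, Esrra, Nrf1 and Tfam lie between 9.53 and 33.0 TPM, and Ppargc1b, Ppargc1a and Ppara between 0.319 and 1.64 TPM.

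Of 16 RXR partners and coregulators of the PPARs, 0 were called without the block, and 4 were lower and 0 higher with the block at an adjusted p under 0.05 (background 10.1% lower and 11.5% higher). The median log2 fold change was −0.23, and 7 of 16 genes had all PNX libraries below all Sham libraries (background 18.0%). Prdm16, which joins PGC1α in brown fat and also marks arterial ECs, was at 60.3, 59.1 and 72.0 CPM in the Sham libraries and 41.8, 41.0 and 38.7 CPM in PNX, with a log2 fold change of −0.72 (edgeR adjusted p = 0.173, and 0.00432 with the block). Ncoa2 and Ncoa1, coactivators of nuclear receptors, had log2 fold changes of −0.38 and −0.35, and the acetyltransferase Ep300 −0.36.

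Of 24 tested genes that act upstream of PGC1 or beside it, 0 were called without the block, and 4 were lower and 1 higher with it at an adjusted p under 0.05 (background 10.1% lower and 11.5% higher), with a median log2 fold change of −0.10. Esrrg, a relative of Esrra that also works with PGC1, was at 2.27, 2.23 and 4.08 CPM in the Sham libraries and 0.946, 1.44 and 1.35 CPM in PNX, a log2 fold change of −1.32 (SE 0.39, edgeR adjusted p = 0.283, and 0.0122 with the block). Its PNX libraries lay below all Sham libraries, as those of Ppargc1a did. Lpin1, a phosphatidate phosphatase and partner of PGC1α, had a log2 fold change of −0.59 (edgeR adjusted p = 0.312, and 0.00264 with the block). Sirt1, the deacetylase that activates PGC1α, had one of −0.57 (edgeR adjusted p = 0.294, and 0.00604 with the block). Myc, the growth factor-induced transcription factor, was higher, at 64.5, 67.7 and 69.7 CPM in the Sham libraries and 88.9, 91.3 and 97.8 CPM in PNX, with a log2 fold change of 0.47 (edgeR adjusted p = 0.257, and 0.00687 with the block).

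Of 19 genes in the tables that copy and transcribe mitochondrial DNA or supply its building blocks, 0 were called without the block, and 3 were lower and 0 higher with it at an adjusted p under 0.05 (background 10.1% lower and 11.5% higher), with a median log2 fold change of −0.04. The count of lower genes was close to that background. They were Rrm2b (−0.53), Tk2 (−0.41) and Dguok (−0.35), which supply deoxynucleotides to mitochondria. All 3 had an edgeR adjusted p of at least 0.475 without the block.

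Of 30 targets of PPARs in fatty acid uptake, storage and oxidation, 0 were called without the block, and 3 were higher and 3 lower with it at an adjusted p under 0.05, with a median log2 fold change of 0.02. These counts were near the background of 11.5% higher and 10.1% lower. Fabp4, a fatty acid-binding protein of capillary ECs, adipocytes and macrophages, was at 14.7, 14.6 and 14.1 CPM in the Sham libraries and 32.5, 33.0 and 26.5 CPM in PNX, a log2 fold change of 1.05 (SE 0.17, edgeR adjusted p = 0.111, and 6.61e-04 with the block). Fabp5 was higher by 0.65 on the log2 scale, and Gpihbp1, which holds lipoprotein lipase on capillary ECs, had a log2 fold change of −0.71. Also past that threshold with the block, and named after their values were seen, were Angptl4, an inhibitor of that lipase, at 0.59, and the fatty acid transporter Cd36 at −0.59. Cd36 was at 9693, 9318 and 6796 CPM in the Sham libraries and 6182, 6198 and 4655 CPM in PNX, with no overlap between the groups for the most abundant target of the list.

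The last list held genes of the tricarboxylic acid cycle and the respiratory chain, which ERRα and Nrf1 are known to drive. Of 22 in the tables, 13 had all PNX libraries above all Sham libraries and 1 below, against a background of 18.6% and 18.0%, and the median log2 fold change was 0.17. In the tests 0 were called without the block, and 2 were higher and 0 lower with it at an adjusted p under 0.05 (background 11.5% higher and 10.1% lower). The higher ones were Cycs, which encodes cytochrome c (log2 fold change 0.43), and the cytochrome oxidase subunit gene Cox5a (0.38), which was at 29.6, 29.7 and 29.9 CPM in the Sham libraries and 40.9, 39.1 and 37.7 CPM in PNX. The point at 1.90 among the PPAR targets in the plot of the lists is Creb3l3, named after its values were seen, which was below 0.4 CPM in every library and did not pass with the block (edgeR adjusted p = 0.108).

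**Figure D5:**
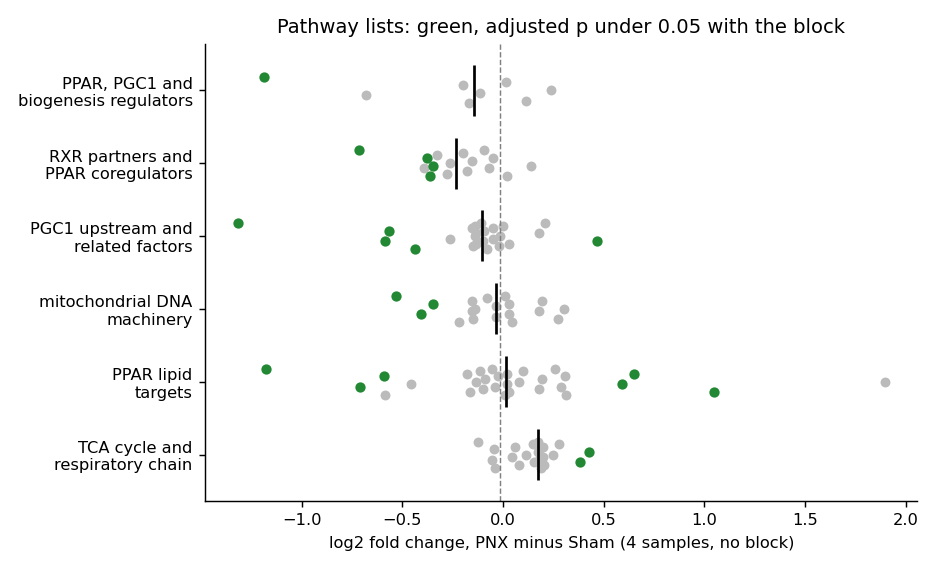
Log2 fold change (PNX minus Sham, edgeR on 4 samples without block) of each tested gene in 6 lists; black lines are list medians, the dashed line is the median of all genes (−0.01), and green points passed an adjusted p under 0.05 with the deposit as block. The list medians run from −0.23 for the PPAR coregulators to 0.17 for the tricarboxylic acid cycle and respiratory chain.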

How the data were processed

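RNA of CD31-selected lung ECs was sequenced in 3 Sham and 3 PNX libraries, grouped by the sample titles. Reads were aligned by the authors to mm10 (GRCm38; the submitters' processing notes name STAR), and they deposited, per RefSeq transcript, raw counts and TPM. The counting rule is not given in the sources used here. Of 12313 transcripts that share a symbol and had over 50 counts, 2577 had the same counts as another of that symbol in all libraries, so the deposited TPM served for levels only and entered no test.

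Counts were summed per symbol, and replicates 1 and 2 of each group were summed to 1 sample. The test was edgeR's quasi-likelihood test (version 4.0.16, R 4.3.3) after filterByExpr and TMM scaling, with Benjamini-Hochberg adjustment over every gene that passed the filter. The standard error is the log2 fold change divided by the square root of F. DESeq2 1.42.0, limma-voom 3.58.1, other scalings, filters, transcript choices and left-out libraries were alternatives. The labels pair the groups by deposit. Across 14156 genes, which are not replicates, the log2 difference between deposits in Sham and that in PNX had a Pearson's r of 0.736 and a Spearman's rho of 0.746, given as a description, so the deposit was also fitted as a replicate block. The fits were tested on simulated counts. Nothing says that libraries came from separate preparations beyond the 2 pooled mice, so p-values measure the spread between these samples.

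The 8 genes and the lists were chosen with earlier results of these data known. Named from each pathway list were the 4 largest log2 fold changes among genes with an adjusted p under 0.05 with the block, otherwise the 2 most abundant. For Ppargc1a and Ppara, the 5 genes with the nearest profile were named. Of the marker lists described with Ppargc1a, Ppara and Pparg, the most abundant gene was named. The other marker lists are given as counts or sums, without gene names. Where a list's other genes are named, the text says so. A gene that the rule names among the PPAR targets is not reported here.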

Additional observations from a re-analysis of the deposited data

Results flagged for a closer look

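Ppargc1b had PNX over Sham ratios on opposite sides of 1 in the earlier deposit (1.24) and the later deposit (0.853), that is, the earlier pair of samples moved one way and the later pair the other. The difference between the deposits was not tested, since each deposit holds 1 sample per group once replicates 1 and 2 are summed, and the interval of the later ratio, from 60 counts in PNX and 81 in Sham, includes 1.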

How the results depend on the processing

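Without the block, 0 genes were called from the 4 samples. The number was 849 with the replicate block, 815 with the replicate block in DESeq2, 624 with the replicate block and DESeq2's size factors, 727 with the replicate block and the transcript with the highest total, 920 with 6 libraries and the replicate number as replicate block, 409 with 6 libraries in edgeR, 587 and 927 in DESeq2 with 4 samples and 6 libraries, and 1203 with replicates 1 and 2 alone. Leaving out a library gave 0 to 863 genes, with 2 without PNX replicate 3 and, with the replicate block, 668 and 671 without Sham replicate 2 or 1 and 485 without PNX replicate 1. Of the 8 genes, 1 was called, always Ppargc1a, with the replicate block in edgeR (log2 fold change −1.18) and in DESeq2 (−1.18), with the replicate block and DESeq2's size factors (−1.18), with 6 libraries and the replicate number as block (−1.17), in DESeq2 with 6 libraries (−1.18) and with replicates 1 and 2 alone (−1.16). When libraries were left out, 0 or 1 of the 8 were called, and the log2 fold change of Ppargc1a lay between −1.39 and −0.97, with −1.23 without Sham replicate 1 and −1.28 to −1.13 over the left-out libraries where it was called, and it was lower after PNX in 26 of 26 alternatives. The block changed no other call of the 8 genes. The settings with 6 libraries, or with replicates 1 and 2 alone, took those replicates as separate samples. Ppargc1b turned to −9e-04 under upper-quartile scaling and to between −0.0615 and −0.0081 without Sham replicate 1, PNX replicate 2 or PNX replicate 3, with a highest value of 0.397 without Sham replicate 3. Pparg ran from −0.579 without PNX replicate 3 to 0.064 without Sham replicate 3. A group without its replicate 3 kept only the earlier deposit, while the other group kept both. The cause of these changes was not tested. Ppara, Nrf1 and Tfam were lower and Ppard and Esrra higher in 26 of 26 alternatives. Replicate 3 could not be left out with the block, since no residual degree of freedom remained. Where it was left out without the block, the lone sample was assumed to vary like the other group. At 37 to 162 counts per library, depth limits Ppargc1a, and at 33 to 150 counts Ppara.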

Other observations

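The alveolar macrophage markers did not move as 1 group, and the genes given here were chosen after their values were seen. Marco, a scavenger receptor, was at 18.9, 18.5 and 19.7 CPM in the Sham libraries and at 144, 148 and 63.7 CPM in PNX, a log2 fold change of 2.45 (edgeR adjusted p = 0.124, and 0.00122 with the block). Ear1, an eosinophil-type ribonuclease gene, was at 29.7, 29.2 and 55.4 CPM in the Sham libraries and at 14.2, 13.0 and 30.6 CPM in PNX, with a log2 fold change of −0.95 (edgeR adjusted p = 0.544, and 6.64e-04 with the block). Siglec5, the lectin gene whose product marks these cells, had a log2 fold change of −0.48, and the lipid droplet gene Cidec one of −0.39. Itgax and Plet1, which also mark these cells, had log2 fold changes of −0.01 and 0.05.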
